A study of Homo sapiens with 27 samples.

Results

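The data described here compare overconfluent U2OS cells, an established human osteosarcoma line, that carry the short hairpin MMP2sh2 with overconfluent U2OS cells that carry the blank pLKO.1 vector. A short hairpin RNA directs the degradation of the mRNA it matches, here that of MMP2. The members were chosen by sample label alone, as the 3 MMP2sh2 libraries (hairpin 26) and the 3 control libraries of day +2, of 27 libraries in all, and as every gene that passed a filter on low counts. The filter kept 19339 of the 55882 gene symbols counted.

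Both lines were made by stable lentiviral transduction and puromycin selection of the same parental cells, and each hairpin is represented by a single transduced line. Poly(A) RNA was sequenced at day -2 (subconfluent), day 0 (confluent) and day +2 (overconfluent) in the control, in MMP2sh1 (hairpin 23) and in MMP2sh2, with 3 replicates in each of the 9 groups. The study described these as independent biological replicates. The question was which genes depend on MMP-2 in cells that have grown past confluence.

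MMP2 encodes matrix metalloproteinase 2, a zinc protease that is secreted as a proform and cleaves denatured collagen and other matrix proteins, and that has also been found in the nucleus, where it can clip the N-terminal tail of histone H3. U2OS cells divide without differentiating far along the osteoblast lineage, and crowded cultures of such cells meet falling oxygen and nutrients as well as secreted factors that accumulate in the medium. Genes of oxygen sensing and of amino acid shortage are known to move with the density of a culture.

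The 6 libraries held 33778818 to 40844889 reads on genes, within the range of 33580129 to 59374327 of the series. Replicates of one group differed by more than counting noise, so each was counted as its own sample. Markers of the mesenchymal and osteosarcoma type summed to 6747 to 7626 counts per 1000000 counts (CPM) in the control and 6655 to 7103 in MMP2sh2, with FN1, SPARC and COL1A1 highest, while TWIST1, COL1A2 and NT5E were at or near 0. Of the epithelial markers, KRT8 and KRT18 made up most of a sum of 437 to 459 CPM in the control and 475 to 478 in MMP2sh2, while CDH1, GRHL2, KRT19 and CLDN7 were at or near 0. Leukocyte markers, nearly all of it LCP1 while PTPRC, CD3E and MS4A1 were at or near 0, summed to 16.4 to 19.2 CPM in the control and 20.2 to 23.1 in MMP2sh2, and endothelial markers to 8.14 to 9.63 and 7.54 to 8.28. The part of these differences in the results was not tested. In bulk RNA, fewer cells of a type and less RNA per cell cannot be told apart.

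MMP2 was reduced but not abolished. The gene lies on chromosome 16 of GRCh37 (the build also called hg19), from 55423612 to 55540603 on the plus strand. Its level was 519, 499.7 and 513 CPM in the 3 control libraries and 291, 303 and 277 CPM in the 3 MMP2sh2 libraries, so the groups did not overlap and the mean was 56.8% of the control. CPM were computed here with library sizes corrected by TMM, the scaling of edgeR. The log2 fold change was -0.82 (SE 0.05, adjusted p = 5e-16, quasi-likelihood F test of edgeR, adjusted over all genes tested by the Benjamini-Hochberg method, as for every adjusted p given here). In MMP2sh2 it also fell by 1.06 at day 0 and by 0.70 at day -2 on the log2 scale. MMP2sh1 lowered it further at day +2, with a log2 fold change of -2.34, and MMP2 stood 1.52 higher on the log2 scale in MMP2sh2 than in MMP2sh1 (adjusted p = 1.3e-14).

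Among 19 measured activators, inhibitors and partners of MMP2, 2 were higher and 1 was lower (median log2 fold change -0.01, beside -0.00075 over all genes tested). CLDN1, a tight junction protein that can recruit proMMP-2, rose from 7.39, 6.95 and 7.09 CPM to 11.9, 10.9 and 11.98 CPM (log2 fold change 0.70, SE 0.12, adjusted p = 0.0001). MMP24, a membrane-anchored protease of the same family, rose by 0.50 on the log2 scale (adjusted p = 0.0018). TIMP1, an inhibitor of metalloproteinases, was lower by a small amount (log2 fold change -0.19, SE 0.04, adjusted p = 0.0045), and its call was lost without control replicate 3 (adjusted p = 0.094). MMP14, the membrane protease that activates proMMP-2, had a log2 fold change of -0.15 (adjusted p = 0.096), and TIMP2, the inhibitor that takes part in that activation, one of 0.06 (adjusted p = 0.55). CTSB, which encodes the lysosomal protease cathepsin B, had 1897, 1970.4 and 1978 CPM in the control and 1845, 1864 and 1838 CPM in MMP2sh2, which did not pass the test (log2 fold change -0.08, adjusted p = 0.35). Its groups did not overlap, which held for 21.6% of all genes tested.

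In all, 1222 genes were called (6.32% of 19339) at an adjusted p under 0.05, 663 of them lower (3.43%) and 559 higher (2.89%) in MMP2sh2. Most changes were small. The median log2 fold change was -0.37 among the genes called lower and 0.35 among those called higher, and 85 lower and 40 higher genes changed by more than 2-fold. The CPM ranges of the 2 groups did not overlap for 4182 genes (21.6%), among them 1179 of those called. The calls rested partly on single libraries, since their number fell to 679 without control replicate 3, to 761 without control replicate 2 and to 780 without MMP2sh2 replicate 1, and 490 genes (254 lower, 236 higher) were called whichever library was left out.

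**Figure D1:**
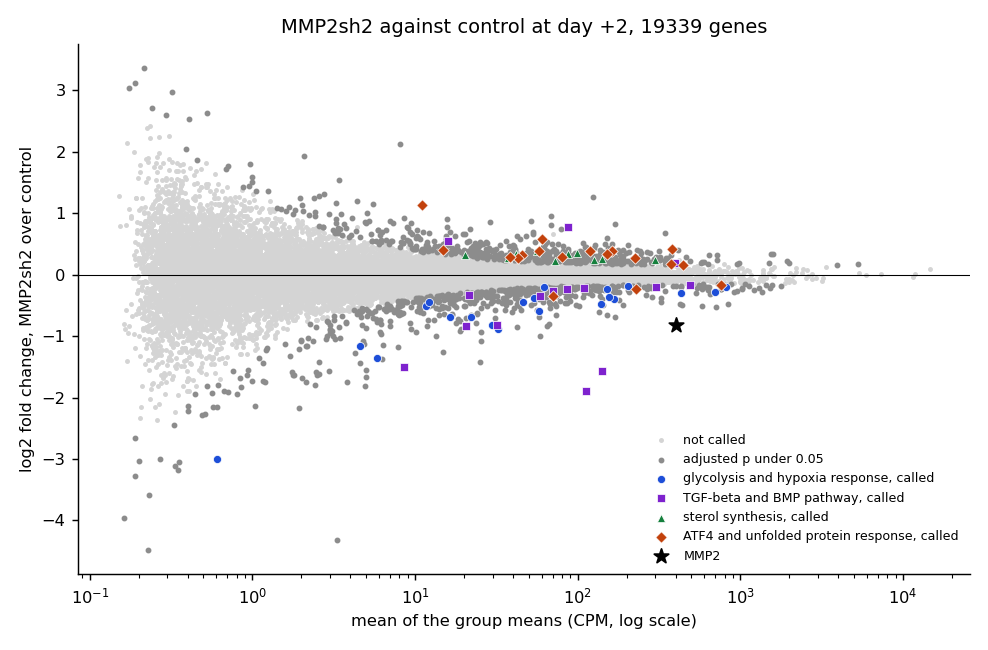
Log2 fold change of MMP2sh2 over control at day +2 (vertical axis) against the mean of the 2 group means in CPM (horizontal axis, log scale), 1 point per gene. Of the 1222 called genes, ID3 and ID1 (the 2 lowest squares) lie far below other genes of their level, and the called members of the glycolysis and hypoxia list lie below 0.

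All 4 ID genes fell, and ID3 and ID1 had the 2 smallest adjusted p-values of the contrast. ID1, ID2, ID3 and ID4 encode inhibitors of DNA binding, helix-loop-helix proteins that block differentiation factors and are direct targets of BMP signalling through SMAD proteins. ID3 had 157, 174 and 199 CPM in the control libraries and 52.6, 51.6 and 38.2 CPM in the MMP2sh2 libraries (log2 fold change -1.89, SE 0.08, adjusted p = 2.4e-21). Every MMP2sh2 library lay below the lowest control library by a wide margin. ID1 had 181, 198 and 249.96 CPM against 74.5, 74.5 and 62.7 CPM (log2 fold change -1.57, SE 0.08, adjusted p = 1.6e-19), and ID4 had 10.8, 13.02 and 14.2 CPM against 5.37, 3.91 and 4.16 CPM (log2 fold change -1.50, adjusted p = 2.3e-10). ID2, named after its values were seen, like SMAD6, SMAD7 and BMPR1B, fell by 0.84 on the log2 scale (adjusted p = 1.4e-08).

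Other genes of the pathway moved at the same time. NOG, which encodes the secreted BMP antagonist noggin, rose from 69.9, 64.9 and 58.0 CPM to 110.1, 117 and 103 CPM (log2 fold change 0.78, SE 0.07, adjusted p = 8.8e-12). SMAD6, an inhibitory SMAD that BMP signalling itself induces, fell from 37.7, 38.8 and 45.9 CPM to 25.1, 24.0 and 20.2 CPM (log2 fold change -0.82, SE 0.09, adjusted p = 3.2e-09). SMAD7, the other inhibitory SMAD, was lower by less (log2 fold change -0.33, adjusted p = 0.015), and its call was lost in 3 of the 6 fits that leave out 1 library, with an adjusted p of 0.076 at most, without control replicate 3. BMPR1B, a receptor for BMP ligands, rose by 0.54 on the log2 scale (adjusted p = 0.00027). In all, 12 of the 37 measured members of the TGF-beta and BMP list were lower (3.43% of all genes tested) and 3 were higher (2.89%), with a median of -0.05, and 6 were lower without control replicate 3. None of ID1, ID3, ID4, NOG or SMAD6 lost its call when any 1 library was left out.

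The falls of ID3 and ID1 were measured at day +2 and not at the earlier days. On the log2 scale MMP2sh2 changed ID3 by -1.89 at day +2, while the value at day 0 was -0.03 (adjusted p = 0.84) and the value at day -2 was 0.30 (adjusted p = 0.0029). The effect on ID1 was 0.14 at day 0 and 0.26 at day -2, against -1.57. The difference between days was itself tested in an interaction fit, which reuses the day +2 libraries by which these genes were picked. For ID3 the effect at day +2 was lower than that at day 0 by 1.87 on the log2 scale (adjusted p = 9.5e-15) and for ID1 by 1.72 (adjusted p = 2.8e-14). For NOG the effect at day +2 was higher than that at day 0 by 0.70 (adjusted p = 6.7e-07). For SMAD6 that difference was -0.9999 (adjusted p = 3.7e-08).

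**Figure D2:**
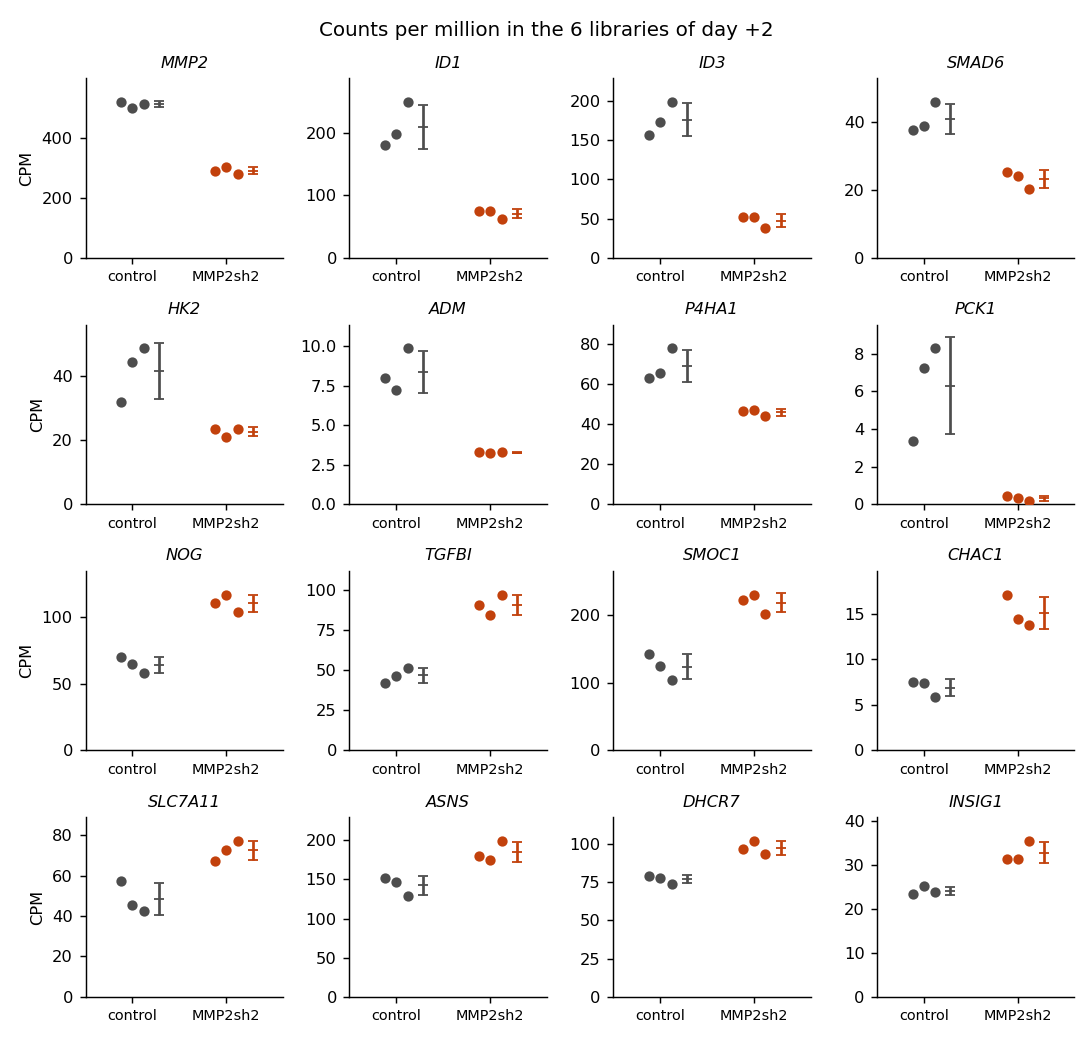
CPM of 16 genes in the 6 libraries of day +2 (dots, 3 control and 3 MMP2sh2 libraries per gene), with the mean and SD of 3 libraries as bars; each vertical axis starts at 0 and has its own scale. The control and MMP2sh2 dots do not overlap for any of the 16 genes, and the SD of HK2 and PCK1 is wide in the control. All 16 were drawn from the called genes, of which 1179 of 1222 did not overlap, beside 21.6% of all genes tested.

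Genes of glycolysis and of the response to low oxygen were lower together. Of 37 measured members, 21 fell and none rose, with a median log2 fold change of -0.30, beside 3.43% of all genes called lower and an all-gene median of -0.00075. The control libraries varied widely. Relative to the control mean, the list median of single libraries was -0.12 to 0.09 in the control and -0.32 to -0.17 in MMP2sh2 (log2). HK2 encodes hexokinase 2, which traps glucose in the cell, and had 31.9, 44.4 and 48.9 CPM in the control and 23.4, 21.1 and 23.6 CPM in MMP2sh2 (log2 fold change -0.88, SE 0.10, adjusted p = 9.2e-09). Control replicate 1 lay between the MMP2sh2 libraries and the other control libraries, so the control spread was wide but the groups did not overlap. ADM, which encodes the vasodilator peptide adrenomedullin, had 7.98, 7.25 and 9.87 CPM against 3.32, 3.20 and 3.27 CPM (log2 fold change -1.36, SE 0.16, adjusted p = 5.7e-08). PFKFB4, an enzyme that sets the level of a glycolysis activator, fell by 0.82 (adjusted p = 6.9e-08), and P4HA1, the collagen prolyl hydroxylase subunit induced by low oxygen, by 0.59 (adjusted p = 9.4e-08).

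Further members of that list were chosen after their values were seen, for their roles. The glucose transporter SLC2A3 fell from 184, 193 and 195 CPM to 147, 139 and 149 CPM (log2 fold change -0.39, SE 0.05, adjusted p = 1.3e-06). PGK1 and LDHA, which encode phosphoglycerate kinase and lactate dehydrogenase A, changed by -0.30 (adjusted p = 0.00012) and -0.29 (adjusted p = 0.0002). BNIP3, a mitochondrial protein of mitophagy, fell by 0.69 (adjusted p = 5.6e-06), and EGLN3, a prolyl hydroxylase that marks HIF for degradation and is itself a HIF target, by 1.16 (adjusted p = 4e-05). In raw counts BNIP3 had 734, 1071 and 1265 in the control and 684, 628 and 724 in MMP2sh2. EGLN3 had 142, 310 and 268 against 110, 121 and 111. These counts are not scaled by library size, and control replicate 1, the lowest control library in both genes, was also the smallest library. CA9, the carbonic anhydrase often used as a marker of low oxygen, was scarce, with 0.386, 0.919 and 1.92 CPM against 0.203, 0 and 0.197 CPM (log2 fold change -2.997, adjusted p = 0.002), and its call was lost without control replicate 3 (adjusted p = 0.15). The fold change of so scarce a gene depends on the prior count of the fit. VEGFA, the vascular growth factor that low oxygen also induces, did not follow the others, at 119.8, 119 and 107 CPM against 129, 131 and 125 CPM (log2 fold change 0.15, adjusted p = 0.12). Its groups did not overlap, although it was not called.

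At days 0 and -2 this list did not lean towards lower members. At day 0, 10 of 36 measured members were higher in MMP2sh2 than in the control (7.07% of all genes tested) and 2 were lower (5.81%). At day -2, 3 of 36 were higher (4.71% of all genes) and 3 lower (6.33%). HK2 had a log2 fold change of 0.40 at day 0 (adjusted p = 0.00042), while at day -2 it was 0.02 (adjusted p = 0.93). The interaction of line and day was called lower for 20 members against day 0 (in either direction, for 4.76% of 20673 genes) and for 14 members against day -2 (4.98% of 20653 genes), and higher for none in either fit. These fits reuse the day +2 libraries, and the list was chosen with earlier results of these data known. That fixes part of such interaction counts in advance, here and for the lists below. Without control replicate 3 of day +2, the genes with an interaction numbered 643 in place of 984 and 541 in place of 1029. With any 1 library left out, 15 to 22 members were lower at day +2, and the fewest were found without control replicate 3.

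The promoters of the list were read from RefSeq sequence (build GRCh38.p14), as the 250 bases before the annotated start, because its members moved together. The core of the hypoxia response element was searched as ACGTG or GCGTG on both strands, with overlapping matches counted. A promoter was matched for 20 of the 37 members and for 8711 of the genes tested. The core was present in 16 of the 20 members (80%) and in 4944 of 8711 genes (56.8%), and in 54.4% of the genes called lower and 54.9% of those called higher that had a promoter. A core this short occurs in most promoters, and a match is a description of letters, not of a site in use. The 4 sequences that follow show the number and place of matches in members that fell, with the core in capitals. PGK1 lies at chrX:78103998-78104247 on the plus strand, BNIP3 at chr10:131981924-131982173 on the minus strand, P4HA1 at chr10:73096867-73097116 on the minus strand and CA9 at chr9:35673678-35673927 on the plus strand.
PGK1: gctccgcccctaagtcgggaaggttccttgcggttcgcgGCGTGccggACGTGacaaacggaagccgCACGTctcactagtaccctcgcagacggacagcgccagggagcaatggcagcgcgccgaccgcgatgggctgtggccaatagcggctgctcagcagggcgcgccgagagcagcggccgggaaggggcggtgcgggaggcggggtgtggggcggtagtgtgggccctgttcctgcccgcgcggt
BNIP3: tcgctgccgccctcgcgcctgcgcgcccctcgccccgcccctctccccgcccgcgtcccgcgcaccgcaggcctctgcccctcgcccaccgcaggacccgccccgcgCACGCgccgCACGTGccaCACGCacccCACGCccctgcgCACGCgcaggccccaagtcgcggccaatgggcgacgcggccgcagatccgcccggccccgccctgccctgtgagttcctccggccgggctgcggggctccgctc
P4HA1: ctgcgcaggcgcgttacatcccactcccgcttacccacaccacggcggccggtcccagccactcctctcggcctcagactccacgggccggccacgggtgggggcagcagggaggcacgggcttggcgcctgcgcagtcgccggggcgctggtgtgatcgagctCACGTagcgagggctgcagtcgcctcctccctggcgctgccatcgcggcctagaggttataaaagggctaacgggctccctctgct
CA9: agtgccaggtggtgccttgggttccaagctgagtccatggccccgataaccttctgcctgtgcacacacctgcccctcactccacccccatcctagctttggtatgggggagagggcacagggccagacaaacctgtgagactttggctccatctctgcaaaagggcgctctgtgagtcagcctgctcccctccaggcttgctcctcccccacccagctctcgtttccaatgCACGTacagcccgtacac

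PGK1 held 3 matches, all in the part of the window farthest from its start. BNIP3 held 6, of which 2 overlap in a palindrome. P4HA1 and CA9 held 1 each, and that of CA9 stands near its start.

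Genes of amino acid shortage were higher. Of 33 measured members of the ATF4 and unfolded protein response list, 15 rose and 3 fell (median 0.17, beside 2.89% of all genes called higher). ATF4 is the transcription factor that is translated when amino acids are short or proteins misfold, and it induces genes of amino acid transport and synthesis. CHAC1, a glutathione-degrading enzyme and a sensitive ATF4 target, had 7.45, 7.35 and 5.83 CPM in the control and 17.1, 14.4 and 13.8 CPM in MMP2sh2 (log2 fold change 1.13, SE 0.12, adjusted p = 8.8e-09). SLC7A11, the cystine transporter, had 57.5, 45.7 and 42.6 CPM against 67.6, 72.8 and 77.3 CPM (log2 fold change 0.58, SE 0.08, adjusted p = 6.1e-07), and SLC7A5, a transporter of large neutral amino acids, 348, 321 and 304 CPM against 437, 440.1 and 427 CPM (log2 fold change 0.42, SE 0.05, adjusted p = 8.8e-08). In each of the 3 genes, every MMP2sh2 library was above every control library. SLC7A1, the transporter of arginine and lysine, rose by 0.38 (adjusted p = 1.9e-05).

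Among members chosen after their values were seen, the amino acid synthesis enzymes ASNS (asparagine) and PSAT1 (serine) rose by 0.38 (adjusted p = 2e-05) and 0.39 (adjusted p = 0.00071) on the log2 scale. TRIB3, a pseudokinase that ATF4 induces and that restrains it, rose by 0.32 (adjusted p = 0.0013). HERPUD1, a component of endoplasmic reticulum degradation, rose by 0.29 (adjusted p = 0.0034), a call lost without control replicate 3 (adjusted p = 0.11). ATF4 mRNA itself had 419, 432 and 413 CPM against 456, 467 and 487 CPM (log2 fold change 0.16, adjusted p = 0.038), and this call was lost in each of the 6 fits that leave out a library, with an adjusted p of 0.20 without control replicate 3. DDIT4, an inhibitor of mTORC1 that ATF4 and low oxygen both induce, went the other way and fell from 69.2, 85.2 and 84.4 CPM to 62.5, 64.2 and 60.3 CPM (log2 fold change -0.35, SE 0.07, adjusted p = 0.0004). At days 0 and -2 the list did not lean towards higher members. There were 5 members on each side at day 0 (7.07% of all genes higher, 5.81% lower), and only lower ones, 3 of them, at day -2 (6.33%). Interactions against day 0 were called higher for 8 members and lower for 1 (in either direction, for 4.76% of 20673 genes). Against day -2 they were higher for 12 and lower for 1 (4.98% of 20653 genes). SLC7A11 was lower than the control at day 0 (-0.45, adjusted p = 8.4e-07).

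The ATF4 response element was searched as TGATGNAA on both strands in the same promoter windows. It was present in 2 of the 19 members with a promoter (10.5%) and in 123 of 8711 genes (1.41%). Both members rose, and their sequences show the match in capitals, read on the reverse strand in each. CHAC1 lies at chr15:40953221-40953470 on the plus strand and HERPUD1 at chr16:56931892-56932141 on the plus strand.
CHAC1: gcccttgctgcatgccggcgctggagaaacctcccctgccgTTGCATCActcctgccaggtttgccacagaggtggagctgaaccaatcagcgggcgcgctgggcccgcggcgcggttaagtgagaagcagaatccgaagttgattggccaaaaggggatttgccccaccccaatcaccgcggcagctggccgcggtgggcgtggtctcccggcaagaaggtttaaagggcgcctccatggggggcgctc
HERPUD1: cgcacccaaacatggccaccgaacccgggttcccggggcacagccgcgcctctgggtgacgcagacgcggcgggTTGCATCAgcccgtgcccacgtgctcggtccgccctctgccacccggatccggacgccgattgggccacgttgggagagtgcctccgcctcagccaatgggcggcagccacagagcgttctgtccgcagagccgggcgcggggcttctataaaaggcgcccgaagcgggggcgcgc

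Enzymes of sterol synthesis were modestly higher. All 21 measured enzymes had a log2 fold change above 0, with a median of 0.24, and 10 of them rose at an adjusted p under 0.05, beside 2.89% of all genes. DHCR7, which makes cholesterol from its last precursor, had 78.7, 77.7 and 73.7 CPM in the control and 96.6, 102 and 93.0 CPM in MMP2sh2 (log2 fold change 0.34, SE 0.06, adjusted p = 0.00011). SQLE, squalene epoxidase, had 86.8, 95.5 and 78.1 CPM against 108, 105 and 120.2 CPM (log2 fold change 0.36, SE 0.07, adjusted p = 0.00019). Neither pair of groups overlapped. Without control replicate 3, 6 of the 21 enzymes were called, and 6 to 9 were called with any 1 library left out.

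Genes of sterol uptake, sensing and efflux moved in both directions, beside 2.89% of all genes called higher and 3.43% lower. INSIG1, a sterol-regulated protein that holds the SREBP precursors in the endoplasmic reticulum, rose from 23.5, 25.2 and 23.8 CPM to 31.4, 31.4 and 35.5 CPM (log2 fold change 0.44, SE 0.08, adjusted p = 0.00022). SREBF2, the transcription factor that activates sterol synthesis, rose by 0.28 (adjusted p = 0.00013). ABCG1, which exports cholesterol and is induced by sterol-activated LXR receptors, fell by 0.31 (adjusted p = 0.0011). ABCA1, the other main exporter and named after its values were seen, was higher instead (log2 fold change 0.48, adjusted p = 0.0058), and its call was lost without control replicate 2 (adjusted p = 0.085). In all, 6 of 19 measured members rose and 5 fell, and the count of lower members with any 1 library left out was 2 (without MMP2sh2 replicate 1) to 6. Of 20 genes of fatty acid synthesis and desaturation, 6 rose and none fell (median 0.06), among them the desaturase SCD, from 209, 204 and 187 CPM to 261, 253 and 275 CPM (log2 fold change 0.40, SE 0.05, adjusted p = 9.3e-07). At day 0, 8 of the 21 sterol enzymes were higher (7.07% of all genes), while at day -2 none was higher (4.71%) and 3 were lower (6.33%). The interaction was called higher for 7 enzymes against day -2 and for none against day 0. Over all genes it was called in either direction for 4.98% of 20653 and 4.76% of 20673. A sterol regulatory element searched as TCACNCCAC was found in 0 of the 11 enzymes with a promoter and in 76 of 8711 genes (0.872%), which says only that these letters are not in those windows.

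Cytosolic ribosomal protein genes shifted downward by a small amount. Of 73 measured, 24 were lower (3.43% of all genes) and none was higher (2.89%), with a median of -0.12. RPS27 had 929.7, 1029.5 and 988 CPM in the control and 700.1, 703 and 719 CPM in MMP2sh2 (log2 fold change -0.47, SE 0.05, adjusted p = 5.7e-10), and RPS28 had 457, 505 and 529 CPM against 354, 355 and 366 CPM (log2 fold change -0.47, SE 0.05, adjusted p = 7.5e-09). Both genes encode small proteins of the 40S subunit, and their groups did not overlap. The count of lower members was sensitive to single libraries, at 15 without control replicate 2 or without MMP2sh2 replicate 1, and at 40 without MMP2sh2 replicate 3, and it was 13 by DESeq2 with all 27 libraries in the fit. At day 0 the same list was higher, with 52 of 73 members called higher (7.07% of all genes) and none lower (5.81%). The day +2 effect was called lower than the day 0 effect for 54 of the 73 (in either direction, for 4.76% of 20673 genes).

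Nuclear genes of the respiratory chain were also called lower in part, 8 of 48 with none higher (median -0.07), beside 3.43% of all genes called lower. COX7B, a subunit of cytochrome c oxidase, fell by 0.37 (adjusted p = 3e-05), and NDUFA4, another subunit of that complex, by 0.28 (adjusted p = 0.0005). Only 3 members were called without control replicate 2 or without MMP2sh2 replicate 1, and 4 without control replicate 3. At day 0, 19 of the 48 were higher in MMP2sh2 (7.07% of all genes) and none was lower (5.81%). The interaction against day 0 was called lower for 14 members (in either direction, for 4.76% of 20673 genes). Of the 13 genes encoded by the mitochondrial genome, 4 were higher at day +2 (2.89% of all genes) and 1, MT-ND3, was lower (log2 fold change -0.24, adjusted p = 0.00041). With 1 library left out, the number of higher mitochondrial genes was 0 (without control replicate 2 or without MMP2sh2 replicate 1) to 6. With all 27 libraries in the fit, none of the 13 was called in either direction by edgeR or by DESeq2, and the adjusted p of MT-ND3 was 0.16 and 0.34. At day 0 and at day -2, 10 of the 13 were higher in MMP2sh2 (7.07% and 4.71% of all genes) and none was lower. In MMP2sh1 at day +2, 10 were higher (1482 of 19294 genes) and none was lower. Short genes as a class moved with these lists at day +2. Among protein-coding genes of at least 10 CPM, the shortest of 4 groups of equal size by exonic length had 174 genes lower and 67 higher, and the longest had 87 lower and 155 higher. The median deviation of that shortest group from the control mean was -0.038, 0.025 and 0.014 in the control libraries and -0.051, -0.032 and -0.028 in the MMP2sh2 libraries on the log2 scale, so control replicate 1 lay among the MMP2sh2 libraries. Reads on ribosomal protein genes made up 6.83% to 7.44% of counts in the control and 6.50% to 6.88% in MMP2sh2. The part of gene length in these lists was not tested.

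The largest fold changes were in genes of low level. PCK1, which encodes the gluconeogenic enzyme PEPCK, fell most among the genes named by rule, from 3.38, 7.25 and 8.30 CPM to 0.456, 0.318 and 0.172 CPM (log2 fold change -4.32, SE 0.31, adjusted p = 1.6e-13). MMP7, the metalloproteinase matrilysin, had 2.67, 2.53 and 4.27 CPM against 0.987, 0.0245 and 1.08 CPM (log2 fold change -2.18, adjusted p = 0.00025). The MMP2sh2 libraries were below the control libraries in both genes, but in MMP7 they ranged widely among themselves. ANGPT1, the angiopoietin that activates the TIE2 receptor, fell by 1.80, ITGA8, an integrin subunit of mesenchymal cells, by 1.74, MYOCD, the SRF coactivator of smooth muscle, by 1.73, and GZMA, a granzyme best known in lymphocytes, by 1.69, each from 1.39 to 4.39 CPM in the control. NCALD, a neuronal calcium sensor, fell by 1.74. COLEC12, a scavenger receptor of the collectin family, fell at a higher level, from 76.1, 70.3 and 87.6 CPM to 40.7, 36.4 and 39.9 CPM (SE of the log2 fold change 0.07, adjusted p = 1.6e-13).

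In the other direction, ANKRD20A19P, a pseudogene of a family of near-identical copies whose reads cannot be assigned with certainty, rose from 2.79, 2.81 and 3.43 CPM to 14.9, 14.6 and 9.92 CPM (log2 fold change 2.12, SE 0.16, adjusted p = 1.9e-13). It was also higher in MMP2sh2 at day 0 (1.93) and day -2 (1.63), and its log2 fold change in MMP2sh1 at day +2 was -0.04 (adjusted p = 0.94). TGFBI, a matrix protein named for its induction by TGF-beta, rose from 42.2, 46.6 and 51.5 CPM to 90.4, 84.3 and 97.2 CPM (log2 fold change 0.95, SE 0.07, adjusted p = 1.7e-13). SMOC1, a secreted matrix protein that can antagonize BMP signalling, rose from 141, 124 and 104 CPM to 222, 229.5 and 201 CPM (log2 fold change 0.82, SE 0.07, adjusted p = 6.8e-12), although it was lower in MMP2sh2 at day 0 (-0.9997, adjusted p = 7.7e-09). KRT75, a type II keratin, rose by 0.81 (adjusted p = 6.8e-12), also after a negative effect at day 0 (-0.54, adjusted p = 2.6e-06). Scarcer genes that rose included RPE65 (1.93), the retinoid isomerase of the retinal pigment epithelium, CPXM2 (1.54), a secreted carboxypeptidase-like protein, TENM1 (1.31), a teneurin, HS3ST5 (1.27), a heparan sulfate sulfotransferase, RASSF6 (1.24), a RAS-association protein, MFAP5 (1.19), a microfibril protein, PRSS1 (1.17), a trypsinogen with closely related copies, and MISP (1.14), a spindle protein, as log2 fold changes.

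Matrix genes moved in both directions, and each count is set against 2.89% of all genes called higher and 3.43% lower. Of 25 other secreted proteases of the matrix, 6 rose and 5 fell, with MMP13, a collagenase, falling from 5.37, 5.82 and 7.04 CPM to 2.53, 2.64 and 2.39 CPM (log2 fold change -1.27, SE 0.18, adjusted p = 3.3e-06) and PLAU, the urokinase plasminogen activator, rising from 93.5, 93.1 and 83.7 CPM to 122, 119 and 109.9 CPM (log2 fold change 0.38, SE 0.06, adjusted p = 2.2e-05). ADAMTS6 and ADAM12, a secreted and a membrane-bound protease, rose by 0.58 (adjusted p = 8.7e-05) and 0.57 (adjusted p = 0.00013). Of 29 collagens, 3 rose and 4 fell. COL3A1, a fibrillar collagen, fell from 84.4, 80.9 and 88.5 CPM to 49.5, 54.6 and 41.0 CPM (log2 fold change -0.81, SE 0.07, adjusted p = 6.6e-11), and it was lower at day 0 (-0.82) and day -2 (-0.40) as well. Of 41 matrix glycoproteins, proteoglycans and crosslinkers, 7 rose and 5 fell, and TNC, the glycoprotein tenascin C, rose by 0.44 (adjusted p = 1.7e-06). With 1 library left out, the number of lower proteases was 3 (without control replicate 3 or without MMP2sh2 replicate 1 or without MMP2sh2 replicate 3) to 4, that of lower collagens 1 (without control replicate 2) to 3 and of higher collagens 0 (without MMP2sh2 replicate 1) to 5 (without MMP2sh2 replicate 3), and that of higher matrix glycoproteins 6 to 11 (without MMP2sh2 replicate 3) and lower ones 3 (without control replicate 2 or without control replicate 3) to 6. Of 21 integrins, 3 rose and 3 fell, with the laminin receptor subunit ITGA6 higher by 0.39 (adjusted p = 1.3e-05). Of 33 cadherins and protocadherins, 6 rose and 1 fell, with N-cadherin (CDH2) higher by 0.37 (adjusted p = 8.7e-05) and PCDHB2, a clustered protocadherin, lower by 0.51 (adjusted p = 0.0027). Of 34 targets of YAP and SRF, 7 rose and none fell (median 0.08), among them the matricellular genes CYR61 (129, 118 and 109 CPM against 155, 156 and 157 CPM, log2 fold change 0.39, SE 0.06, adjusted p = 5.3e-06) and CTGF (log2 fold change 0.27, adjusted p = 0.00092), but 4 were called without control replicate 2, without control replicate 3 or without MMP2sh2 replicate 1. With 1 library left out, higher cadherins numbered 2 (without control replicate 2) to 6, higher integrins 2 to 5 (without MMP2sh2 replicate 3) and lower integrins 1 (without control replicate 3 or without MMP2sh2 replicate 3) to 3.

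Signalling genes outside the BMP pathway were called as well, beside 3.43% of all genes called lower and 2.89% higher. Of 42 WNT and Notch genes, 5 fell and 1 rose. LEF1, a transcription factor of WNT signalling, fell from 67.3, 67.2 and 78.7 CPM to 48.0, 47.3 and 37.5 CPM (log2 fold change -0.68, SE 0.08, adjusted p = 1.7e-08), and NKD1, a feedback inhibitor of the pathway, by 0.75 (adjusted p = 3.3e-06). Of 34 growth factor and receptor genes, 5 fell and 3 rose. TGFA, an EGF receptor ligand, fell from 75.8, 78.6 and 93.6 CPM to 47.5, 45.5 and 45.8 CPM (log2 fold change -0.84, SE 0.07, adjusted p = 6.8e-12), IGFBP5, an IGF-binding protein, from 703, 653 and 679 CPM to 499, 494 and 439.8 CPM (log2 fold change -0.51, SE 0.05, adjusted p = 8.1e-10), and MET, the hepatocyte growth factor receptor, rose by 0.41 (adjusted p = 2.5e-05). Of 43 guidance genes, 10 fell and 5 rose, with the semaphorin SEMA3C lower by 0.51 (adjusted p = 1e-07) and the netrin receptor UNC5B by 0.47 (adjusted p = 1.7e-07). Of 25 chemokines, cytokines and NF-kB targets, 7 fell and 3 rose, with the scavenging receptor ACKR3 lower by 0.84 (adjusted p = 8.4e-05) and the chemokine CCL2 higher by 0.51 (adjusted p = 0.00016). Of 42 interferon-stimulated genes, 4 fell, with BST2, a tether of virions, lower by 0.36 (adjusted p = 0.00037), USP18, a deISGylase, by 0.78 (adjusted p = 0.00082) and IFIT1, an RNA sensor, by 0.46 (adjusted p = 0.00092). Of 29 immediate early genes, 6 rose and 4 fell, and PHLDA1, a growth-factor-induced gene, fell from 365, 372 and 383 CPM to 274, 281 and 264 CPM (log2 fold change -0.45, SE 0.05, adjusted p = 1.1e-08). With 1 library left out, lower chemokine list members numbered 3 (without control replicate 3) to 6, higher guidance genes 3 (without MMP2sh2 replicate 1 or without MMP2sh2 replicate 2) to 7, higher immediate early genes 1 (without control replicate 3) to 6 and lower ones 2 (without control replicate 3) to 7 (without control replicate 1).

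Genes of the cell cycle, chromatin, lysosome and stress are given beside the 6.32% of all genes that were called (3.43% lower, 2.89% higher). Of 39 DNA replication genes 2 were lower (5.13%), which is close to the share of all genes, and of 39 mitosis genes 4 were lower (10.3%), with none higher in either list and medians of -0.02 and -0.05. The 2 replication genes, CCNE1 (cyclin E1) and GINS2 (a subunit of the replicative helicase), each lost the call in 4 of the 6 fits that leave out a library, with an adjusted p of 0.23 and 0.15 at most, and the list then had 0 (without control replicate 2 or without control replicate 3 or without MMP2sh2 replicate 1 or without MMP2sh2 replicate 2) to 3 lower members. TOP2A, the mitotic topoisomerase, had 956, 892 and 929.9 CPM against 826, 790.5 and 882 CPM (log2 fold change -0.15, adjusted p = 0.041), a call lost in 5 of the 6 fits that leave out a library, with an adjusted p of 0.28 without MMP2sh2 replicate 2. Of 51 histone-modifying enzymes, 1 was higher and 1 lower (3.92%, median 0.02), and the lower one was KDM3A, a histone demethylase induced by low oxygen (log2 fold change -0.39, SE 0.07, adjusted p = 0.00019). The higher one was HDAC4, a histone deacetylase (log2 fold change 0.56, adjusted p = 0.03), a call lost in 4 of the 6 fits. Of 33 cathepsins and lysosomal hydrolases, 1 was higher and 1 lower (6.06%), GAA and ASAH1, both calls lost in 4 of the 6 fits. Of 16 osteoblast lineage genes the 1 called higher was ATF4, which is also in the ATF4 list. Of 26 p53 targets and CDK inhibitors, 3 rose and 1 fell (15.4%), of 26 genes of oxidative stress and metallothioneins 2 rose and 3 fell (19.2%), of 21 antigen presentation genes 2 rose and 1 fell (14.3%), and of 29 histone genes 1 rose and 2 fell (10.3%). Each of the 4 calls in the p53 list and of the 3 in the antigen presentation list was lost when some library was left out. The 1 higher histone gene, HIST1H3E, lost its call in each of the 6 fits (adjusted p of 0.15 at most), and 2 to 4 histone genes were then lower. The number of lower oxidative stress genes was 1 (without control replicate 3) to 4, and that of lower mitosis genes was 0 (without control replicate 2 or without control replicate 3 or without MMP2sh2 replicate 2) to 7 (without MMP2sh2 replicate 3).

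**Figure D3:**
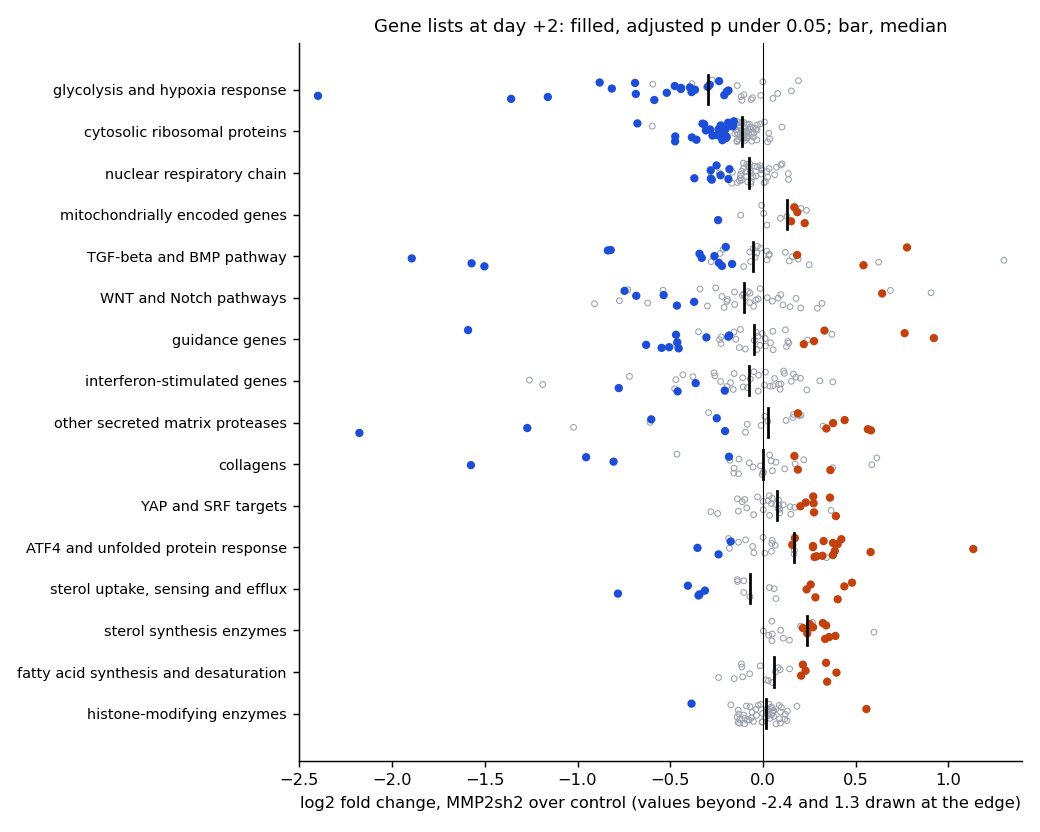
Log2 fold change of MMP2sh2 over control at day +2 for the measured members of 16 gene lists (horizontal axis), 1 point per gene, filled where the adjusted p was under 0.05 and open otherwise, with the list median as a black bar. The called members of glycolysis and hypoxia lie to the left of 0 and those of sterol synthesis to the right, and histone-modifying enzymes lie close to 0 with 2 filled points.

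The difference between MMP2sh2 and the control at the other days was measured in other libraries of the same transduced lines. An effect of the hairpin and a trait of its single line therefore cannot be told apart by day. At day 0, 1108 of 19063 genes were lower (5.81%) and 1348 higher (7.07%) in MMP2sh2, whereas day -2 had 1193 of 18845 lower (6.33%) and 887 higher (4.71%). The 2456 calls of day 0 became 1509 without MMP2sh2 replicate 2 of that day, and the 2080 of day -2 became 728, 1174 and 1252 without control replicate 1, 2 and 3 and 1360 without MMP2sh2 replicate 3. Of the 663 genes lower at day +2, 188 of the 642 tested at day 0 were also lower there (29.3%) and 63 were higher, and 88 of the 624 tested at day -2 were lower (14.1%) and 41 higher. Of the 559 higher genes, 182 of 553 were also higher at day 0 (32.9%) and 51 lower, and 78 of 549 were higher at day -2 (14.2%) and 63 lower. In all, 58 genes were lower and 49 higher at all 3 days. MMP2, COL3A1, COLEC12, IGFBP5, PHLDA1, SEMA3C and MYOCD were among the 58, and ANKRD20A19P, MFAP5, CYR61, MET and CDH4, a cadherin, among the 49.

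**Figure D4:**
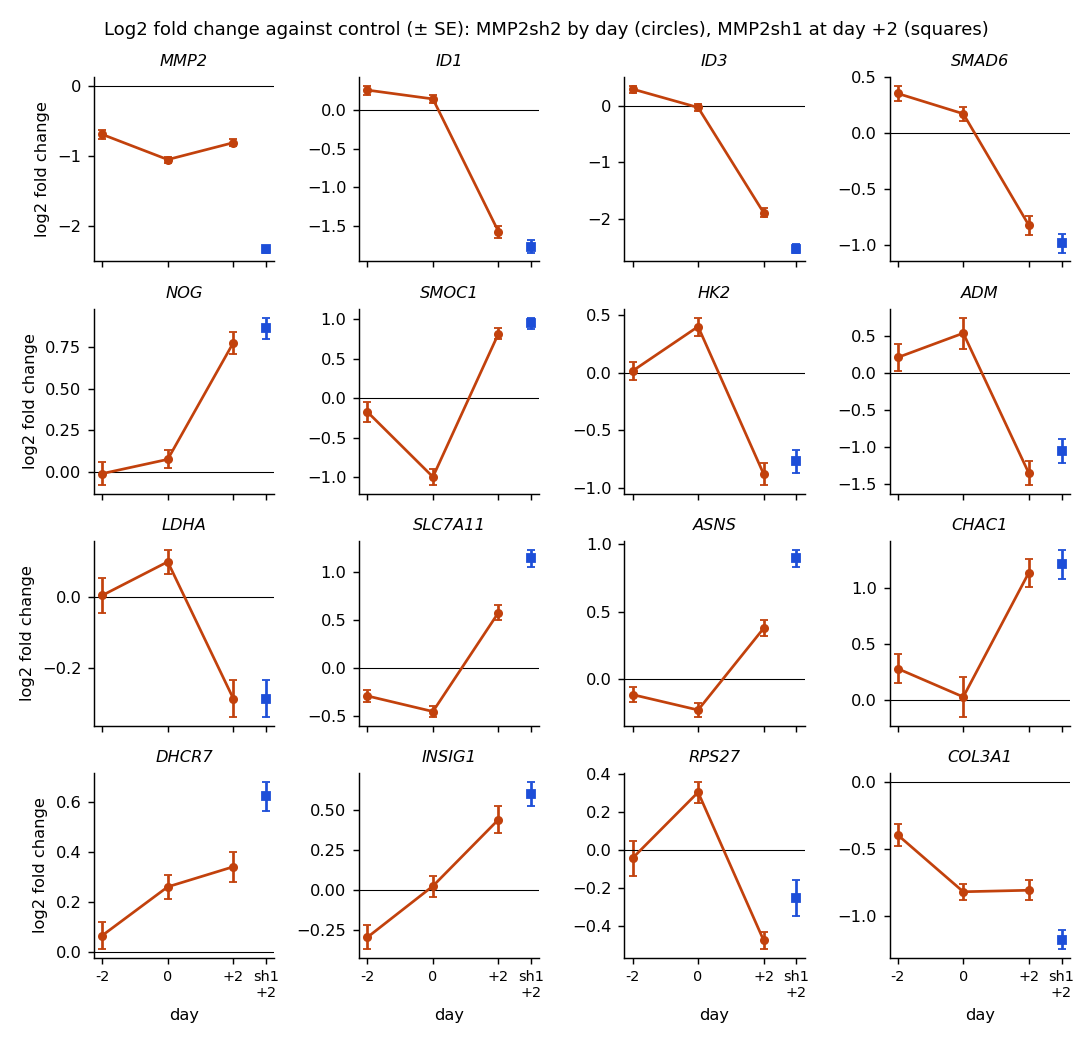
Log2 fold change against the control of the same day (vertical axis, bars are SE) for MMP2sh2 at days -2, 0 and +2 (circles) and for MMP2sh1 at day +2 (squares), for 16 genes, each with its own vertical scale. ID1, ID3 and SMAD6 drop below 0 at day +2, while MMP2 and COL3A1 are below 0 at every day; the MMP2sh1 value at day +2 uses the same control libraries as the MMP2sh2 value.

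The genes called at day +2 were also looked up in the control alone, between day -2 and day 0, in libraries that were not used to call them. As the control reached confluence, 3173 of 19317 genes rose (16.4%) and 3691 fell (19.1%). These shares were not matched for expression level, and genes of high level were called more often at day +2. Of the genes lower in MMP2sh2 at day +2, 286 of the 643 tested had risen in the control (44.5%) and 96 had fallen. Of the genes higher in MMP2sh2, 306 of 551 had fallen (55.5%) and 72 had risen. PCK1 was at 0 CPM in the 3 control libraries of day -2 and at 0.583 to 0.799 CPM in those of day 0. COLEC12 rose by 1.44 in the control on the log2 scale and COL3A1 by 1.12, and each was lower in MMP2sh2. SLC7A5 fell by 0.86 in the control and was higher in MMP2sh2. HK2 went the other way, as it fell by 0.62 in the control (adjusted p = 1.3e-07) and was lower in MMP2sh2 at day +2.

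**Figure D5:**
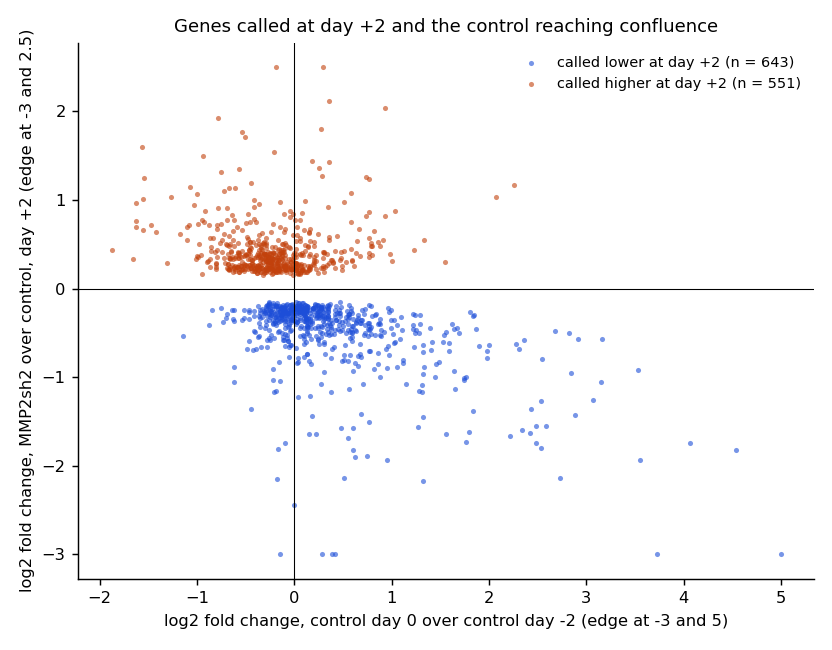
Log2 fold change of MMP2sh2 over control at day +2 (vertical axis) against that of control day 0 over control day -2 (horizontal axis), 1 point for each called gene tested in both, 643 lower (blue) and 551 higher (orange). Blue points extend to the right, where 286 genes rose in the control, and most orange points lie to the left, where 306 fell.

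MMP2sh1 was compared with the same 3 control libraries of day +2, so its values are set beside those of MMP2sh2 without a test of their likeness. It had 2854 of 19294 genes called (14.8%). On the log2 scale ID3 changed by -2.53 in MMP2sh1 and -1.89 in MMP2sh2, ID1 by -1.77 and -1.57, and NOG by 0.86 and 0.78. HK2 changed by -0.77 in MMP2sh1 and -0.88 in MMP2sh2, and ADM by -1.06 and -1.36. ASNS changed by 0.89 in MMP2sh1 and 0.38 in MMP2sh2. The glycolysis and hypoxia list had 23 members lower and 3 higher in MMP2sh1, beside 21 and 0 in MMP2sh2, the sterol synthesis list 12 higher beside 10, the ATF4 list 18 higher and 3 lower beside 15 and 3, and the ribosomal protein list 24 lower in both.

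The 2 hairpin lines were also compared directly, and 1527 of 19427 genes differed (7.86%), or 885 without MMP2sh2 replicate 1, 984 without MMP2sh2 replicate 2 and 968 without MMP2sh1 replicate 2. ID3 was higher in MMP2sh2 than in MMP2sh1 by 0.64 on the log2 scale (adjusted p = 0.00012). SLC7A11 and ASNS were lower in MMP2sh2 by 0.56 (adjusted p = 3.4e-05) and 0.51 (adjusted p = 7.3e-06), and 12 of the 33 ATF4 list members were lower in MMP2sh2 than in MMP2sh1. IGFBP5 was lower in MMP2sh2 by 0.44 (adjusted p = 4.5e-06), and its log2 fold change against the control was -0.51 (adjusted p = 8.1e-10) in MMP2sh2 and -0.07 (adjusted p = 0.44) in MMP2sh1. For ID1, NOG and HK2 the difference between the lines was 0.20 (SE 0.08, adjusted p = 0.12), -0.09 (SE 0.06, adjusted p = 0.47) and -0.11 (SE 0.09, adjusted p = 0.54), and these p-values do not show that the lines were alike.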

How the data were processed

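RNA of U2OS lines was sequenced in 27 libraries (9 groups of 3). Per the labels and the methods of the study, the authors removed adapters (Trim Galore 0.6.0), mapped the reads to the hg19 build (STAR 2.7.3a) and counted them over exons (HTSeq 2.0.0), and deposited raw counts per gene symbol. Lines that name no gene held 17.8% to 18.1% of the reads in the control and 18.6% to 19.1% in MMP2sh2 at day +2 and were left out. Counting ignored strand, so reads of a gene and an overlapping antisense gene cannot be told apart.

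Groups were taken from the labels. Genes were kept with filterByExpr (minimum count 10, minimum total 15), scaled with TMM and tested on the counts with glmQLFit and glmQLFTest of edgeR 4.0.16 in R 4.3.3 (limma 3.58.1), using the 6 libraries of each comparison, or 12 for the interaction of line and day. P-values were adjusted by Benjamini-Hochberg over all genes tested and called under 0.05. Totals of 33778818 to 40844889 counts limited the precision of genes near 1 CPM, of which few were called: 1.20% of the 25% of genes with the lowest mean CPM, against 11.2% of the 25% with the highest. On simulated counts with the library sizes and spread of this comparison, edgeR called 58% of genes changed by 1.5-fold and 75% of genes changed by 2-fold, among 19147 genes that passed the filter, with 6 unchanged genes called.

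Alternatives were DESeq2 1.42.0, median-of-ratios scaling, other filters, more libraries in the fit, the replicate number as a block and leaving out each library. The replicate numbers did not pair the libraries, and p-values measure the spread between these replicates. The comparison, gene lists and markers were chosen with earlier results of these data known. Genes were named by rule: MMP2, CTSB, the 10 largest changes in each direction that were called with and without each library, did not overlap and reached 1 CPM, the 5 lowest p-values in each direction, and the called list members with the lowest p-values (139 genes). A further 23 were named after their values were seen. Some genes that the rule names are not reported here. Promoters came from RefSeq (GRCh38.p14) and gene positions from GRCh37, so no coordinates of one were used with the other. No columns were unused.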

Additional observations from a re-analysis of the deposited data

Results flagged for a closer look

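The effect of MMP2sh2 on expression differed between days. In the interaction of line and day, 1029 genes had an effect at day +2 that differed from that at day -2, and 984 an effect that differed from that at day 0, at an adjusted p under 0.05 by edgeR's quasi-likelihood test. Of 152 genes named here and called at day +2, 79 differed from day -2 and 76 from day 0. Over all genes tested the shares were 4.98% of 20653 and 4.76% of 20673. The 152 were picked by their day +2 calls, and the same day +2 libraries enter the interaction fits. That fixes part of these 2 counts in advance, so they are not evidence that the effect depends on the day. In some of the 152 genes the effect was called with opposite signs at the 2 days, which is why they are listed here. The values in brackets are the effect at day +2 minus that at the other day, on the log2 scale. Against day -2 these were ID3 (-2.20), ID1 (-1.83), ADAMTS6 (1.14), INSIG1 (0.73), SLC7A11 (0.86), KLF6 (0.52), IER3 (-0.52), ID4 (-1.95), ITGB8 (0.65), ENG (-0.81), OCLN (0.72), SMAD6 (-1.18) and HMGCS1 (0.40). Of them, the ID genes and SMAD6 belong to BMP signalling, and INSIG1 and HMGCS1 to sterol metabolism. Against day 0 they were RASSF6 (3.45), SMOC1 (1.81), KRT75 (1.35), CCL2 (1.17), SLC7A11 (1.03), HK2 (-1.29), MT2A (-0.68), ITGB8 (0.67), COX7A2 (-0.47), COX7C (-0.43), MT-ND3 (-0.73), RPS27 (-0.78), RPS28 (-0.72), RPL38 (-0.61), RPL23A (-0.73), LDHA (-0.39), BNIP3 (-0.97) and ASNS (0.60). HK2, LDHA and BNIP3 among them belong to glycolysis and the response to low oxygen, and 4 encode ribosomal proteins. Some of these day +2 calls rested on single libraries. When 1 library was left out, HMGCS1 lost its call in 5 of 6 fits (adjusted p of 0.11 at most), ENG in 4 (0.52), COX7A2 and COX7C in 2 each (0.058 and 0.078) and IER3 in 1 (0.099), the largest of these p-values arising without control replicate 3 for HMGCS1, ENG and IER3 and without control replicate 2 for the COX7 genes. The 2 days of a pair were cultured and sequenced as separate libraries, and no cause of the differences was tested. Groups of 3 libraries are too small for a search for single outlying samples.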

How the results depend on the processing

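With each library left out in turn, the genes called at day +2 numbered 679 to 1440 (358 to 726 lower, 321 to 714 higher), and the log2 fold change of MMP2 was -0.85 to -0.78. In the same way the calls were 885 to 1625 between MMP2sh2 and MMP2sh1, 541 to 1214 and 643 to 1140 for the interactions with day -2 and day 0, and 1928 to 3182 for MMP2sh1, while MMP2sh2 against its control gave 728 to 1743 calls on day -2 and 1509 to 2257 on day 0. Under the other alternatives (DESeq2, other scaling, filters, libraries in the fit, block) the day +2 calls were 1026 to 1315 and none of these counts moved by over 1.5 times. Counts within gene lists moved more, and with all 27 libraries in the fit edgeR called 4 chemokine list members lower in place of 7, 2 collagens in place of 4, 3 matrix proteases in place of 5, 3 genes of sterol uptake, sensing and efflux in place of 5, 2 immediate early genes in place of 4, 1 oxidative stress gene in place of 3 and 5 respiratory chain genes in place of 8. DESeq2 called 1226 genes, 1090 of them shared with edgeR (89.2% of the edgeR calls, 88.9% of its own). Of 152 named and called genes, none changed direction under any alternative. DESeq2 kept 145 of the 149 it gave a value, edgeR on all 27 libraries kept 130, and leaving out 1 library kept 121 to 145. The rule named genes largely by their calls in these same libraries. For the largest changes it also required a call without each library and groups that did not overlap. That fixes part of the counts for the 152 genes in advance, so they do not measure how stable calls are in general. Signs turned only for uncalled marker genes when a library was left out: SPI1 ranged from -1.22 to 0.17 (the latter without MMP2sh2 replicate 2), CLDN5 from -0.25 to 0.14 (without control replicate 3, and 0.10 without MMP2sh2 replicate 3), VWF from -0.20 to 0.19 (without MMP2sh2 replicate 1, and 0.078 and 0.065 without control replicates 1 and 3) and SOX2 from -0.069 (without MMP2sh2 replicate 2, and -0.013 without control replicate 3) to 0.15. The cause was not tested. The replicate numbers gave no sign of pairing (r of same-numbered deviations from the group means -0.043, -0.0024 and -5.6e-05). With the replicate block 1076 genes were called and 150 of the 152 named genes kept their call, and MMP2 was at -0.82. Depth limited scarce genes, with 1.20% of the lowest 25% by level called.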

Other observations

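Other called members of the gene lists are described here, and each of them kept its call with any 1 library left out. JAG2, a Notch ligand, had 11.2, 11.6 and 10.6 CPM in the control and 7.54, 9.05 and 6.47 CPM in MMP2sh2 (log2 fold change -0.54, adjusted p = 0.0058 by edgeR). SFRP1, a secreted WNT antagonist, had 82.7, 83.1 and 81.4 CPM against 60.8, 61.0 and 57.5 CPM (log2 fold change -0.46, adjusted p = 6.5e-07). PDGFRB, the receptor that defines many mesenchymal cells, had 87.2, 82.0 and 83.3 CPM against 64.3, 60.6 and 56.3 CPM (log2 fold change -0.48, adjusted p = 6.8e-07), and its groups did not overlap. LIF, a cytokine of the interleukin 6 family, rose by 0.38 (adjusted p = 4.7e-05), AXL, a receptor tyrosine kinase, by 0.27 (adjusted p = 0.00014), and the multidrug transporter ABCC3 by 0.37 (adjusted p = 0.00019). The metallothionein MT2A fell by 0.25 (adjusted p = 0.00064) and the linker histone H1F0 by 0.28 (adjusted p = 1.2e-05).

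Chromosome medians of the log2 fold change ran from -0.055 on chromosome X to 0.034 on chromosome 21, and 2659 windows of 25 neighbouring genes (of at least 1 CPM) had medians between -0.19 and 0.17.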
